A study of Mus musculus with 16 samples.

Results

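Regulators of G protein signalling (RGS proteins) were followed in single cells of the mouse aorta through 7 genes, Rgs1, Rgs2, Rgs3, Rgs4, Rgs5, Rgs10 and Rgs16. They were 7 of the 31055 features counted, and they were chosen by their measured levels in the cell classes of these same libraries. Their levels by class are therefore a description with no test. The comparisons tested were of genotype, digestion time and kinds of smooth muscle cell. Earlier results of these data were known when the genes were chosen. Heptahelical receptors for vasoconstrictors, chemokines and prostaglandins act by loading the alpha subunit of a G protein with GTP, and an RGS protein speeds the return of that alpha subunit to its GDP form, which ends the signal. In vessels Rgs5 is known as a gene of pericytes and of some arterial smooth muscle, Rgs2 and Rgs4 restrain receptors that couple to Gq, and Rgs1 and Rgs10 are known from leukocytes. Much of this control is exerted through the amount of the RGS protein itself, several of which turn over fast.

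The 16 libraries were each made from the thoracic aorta, root to arch, of 1 male 129S6/SvEv mouse. Smad3, a transcription factor downstream of TGF-beta receptors, had been targeted in vascular smooth muscle cells (VSMCs). All mice carried Myh11-CreER, a Cre that tamoxifen activates in smooth muscle, and all received tamoxifen from 6 weeks of age, so the Cre and the drug were shared by both genotypes. Mice labelled Smad3SmKO also carried 2 floxed Smad3 alleles, and Smad3+/+ mice carried none. There were 2 libraries of each genotype 10 weeks after deletion, all digested for 60 min in batch 4, and 5 Smad3+/+ and 7 Smad3SmKO libraries at 18 weeks, from 5 other batches and digested for 30 or 60 min. The labels give a Myh11-GFP tracer to both Smad3+/+ libraries and to neither Smad3SmKO library at 10 weeks, and at 18 weeks to every library digested for 60 min and to none digested for 30 min. Live nucleated cells were sorted and each captured RNA molecule was counted once by its unique molecular identifier (UMI).

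The libraries held 12539539 to 52843031 UMIs, and 50858 of the 66349 deposited cells were kept, with a median of 4528 to 21884 UMIs per kept cell. Cells were assigned by UMIs of a few genes. VSMCs (8613 cells, 19 to 1675 per library) had at least 5 Myh11 UMIs and more Myh11 than Dcn, and fibroblasts (33906 cells) at least 5 Dcn UMIs and more Dcn than Myh11. Endothelial cells (1188) had at least 2 UMIs of Pecam1 and Cdh5, leukocytes (2945) at least 2 of Ptprc and Tyrobp, and pericytes (112) UMIs of 2 or more of Vtn, Higd1b and Kcnj8. Cells that met several of these rules (4.88%) were left out, except that pericytes took precedence over VSMCs and fibroblasts. Of the 8 markers listed for each class, 7 were highest in VSMCs, 8 in fibroblasts, 8 in endothelium, 8 in leukocytes and 7 in pericytes. The exceptions were Des, higher in pericytes than in VSMCs, and Cspg4, higher in VSMCs than in pericytes. These lists include the genes of the class rules, Myh11, Dcn, Pecam1, Cdh5, Ptprc, Tyrobp, Vtn, Higd1b and Kcnj8. For those genes a high level in their class was set by the rule, so only the other markers check it. Smad3 RNA was not lower in VSMCs of the libraries labelled Smad3SmKO. It stood at 5.05 ± 0.408 (SD, n = 2) and 6.58 ± 1.89 (n = 2) CPM (UMIs of a gene per 1000000 UMIs of the class in that library) at 10 weeks, and at 7.27 ± 3.11 (n = 5) and 9.81 ± 5.11 (n = 6) at 18 weeks, in Smad3+/+ and Smad3SmKO order. UMIs from the 3' end of a transcript need not touch the deleted exons, so this level does not check the labels, and every direction below is between labels. GFP UMIs went against the tracer label in 4 libraries, with 0 in VSMCs of Smad3+/+ replicates 4 and 5 at 18 weeks, labelled as carrying the tracer, and 215 and 125 in both Smad3SmKO libraries at 10 weeks, labelled as not carrying it. The same Smad3+/+ replicates 4 and 5 shared 3507 deposited barcodes, 73.0% of those in the smaller library, against at most 920 for any other pair. Among kept cells no pair of libraries shared more than 11 barcodes, and that pair shared 2.

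Of the 7 genes, 5 lie on chromosome 1. Rgs5 (chr1:169655501-169695813, plus strand) and Rgs4 (chr1:169741477-169747642, minus strand, all positions on GRCm38) are neighbours, with 45663 bases and 0 annotated genes between them, and Rgs2, Rgs1 and Rgs16 lie elsewhere on the chromosome. Rgs3 is on chromosome 4 and Rgs10 on chromosome 7. The 250 bases before the RefSeq start (GRCm38.p6) are shown for Rgs5 and Rgs4, since these neighbours had unlike levels among VSMCs, and for Rgs2, which was called together with Rgs4 in the comparisons of digestion times and of VSMC subsets. Capitals mark, on either strand, the CCAAT box (CCAAT or ATTGG), the core of the cAMP response element (TGACG or CGTCA) and a TATA-like run (TATAA or TTATA). The windows are chr1:169655251-169655500 for Rgs5, chr1:169747643-169747892 for Rgs4 and chr1:144004150-144004399 for Rgs2, the last 2 on the minus strand.
Rgs5: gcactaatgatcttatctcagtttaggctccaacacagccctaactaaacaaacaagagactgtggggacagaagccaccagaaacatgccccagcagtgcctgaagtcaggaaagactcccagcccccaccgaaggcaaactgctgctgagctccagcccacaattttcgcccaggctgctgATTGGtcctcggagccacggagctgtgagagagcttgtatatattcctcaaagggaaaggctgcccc
Rgs4: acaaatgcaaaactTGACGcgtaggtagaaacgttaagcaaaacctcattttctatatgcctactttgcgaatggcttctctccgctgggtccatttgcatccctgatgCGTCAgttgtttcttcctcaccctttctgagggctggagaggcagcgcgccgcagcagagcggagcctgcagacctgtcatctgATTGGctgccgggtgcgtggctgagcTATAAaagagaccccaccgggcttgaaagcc
Rgs2: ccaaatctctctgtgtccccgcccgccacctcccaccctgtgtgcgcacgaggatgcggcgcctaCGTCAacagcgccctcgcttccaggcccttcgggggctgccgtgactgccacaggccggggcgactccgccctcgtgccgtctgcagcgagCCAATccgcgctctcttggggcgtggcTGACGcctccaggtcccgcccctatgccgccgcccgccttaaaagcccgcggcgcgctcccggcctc
A CCAAT box starts 67 bases before the start in Rgs5, 57 in Rgs4, 94 in Rgs2 and 68 in Rgs16, and 33.9% of 32851 mouse promoters of this length hold one. The cAMP response core occurs 2 times in Rgs2, at 185 and 67 bases, and 2 times in Rgs4, at 236 and 141 bases, but not in this window of Rgs5, against 17.8% of all promoters. Only Rgs4, at 31 bases, and both Rgs3 promoters hold the TATA-like run as spelled here, which 22.8% of all promoters hold. The Rgs5 window holds the letters tatatat near its end, which neither spelling matches, so a related element there is not excluded. A CArG box, the site of serum response factor, was in none of the 6 members with a promoter entry and in 1.47% of all promoters.

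Among the 7 genes, Rgs5 and Rgs4 were genes of the mural cells. Rgs5 stood at 5408 CPM on average in pericytes (n = 4 libraries with at least 10 of them), 367 in VSMCs (n = 15), 261 in endothelium (n = 15), 37.7 in fibroblasts (n = 16) and 2.11 in leukocytes (n = 15). The pericyte level was 14.7 times that of VSMCs, was the higher in 4 of 4 libraries, and the ranges did not overlap. Without replicate 7 labelled Smad3SmKO at 18 weeks the pericyte mean was 3253 CPM and this ratio 8.85. VSMCs and endothelium, next to each other in that order, overlapped, and VSMCs were the higher in 9 of 14 libraries. Endothelial Rgs5 averaged 754 CPM in Smad3+/+ and 538 CPM in libraries labelled Smad3SmKO at 10 weeks (n = 2 each). At 18 weeks these means were 118 (n = 5) and 124 CPM (n = 6), and the endothelial median over all libraries was 142 CPM. Endothelium exceeded fibroblasts in 15 of 15 libraries and fibroblasts exceeded leukocytes in 15 of 15. After each cell was thinned to 2000 UMIs, an Rgs5 UMI was found in 70.5% of pericytes, 18.3% of VSMCs, 12.5% of endothelial cells, 3.32% of fibroblasts and 0.679% of leukocytes, against 75.0%, 29.5%, 19.9%, 6.63% and 1.19% unthinned. Leukocytes, which should lack the gene, give the level at which UMIs may come from free RNA, although their mean was 12.6 CPM where cells that met several rules were not left out. Rgs4 had the same top pair, with 150 CPM in pericytes and 59.3 in VSMCs, where pericytes were the higher in 3 of 4 libraries. It was at 3.69 CPM in endothelium, 16.1 times lower than in VSMCs and lower in 14 of 14 libraries, at 2.02 in fibroblasts, and held a single UMI in all leukocytes. The endothelial mean rested on Smad3+/+ replicate 2 at 10 weeks, with 32.7 CPM. The median was 0, with 8 of 15 libraries at 0, and without that library the mean was 1.62 CPM, 36.5 times lower than in VSMCs and below that of fibroblasts.

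The members with high levels in endothelium, beside Rgs5, were Rgs16, a small RGS protein that acts on Gi and Gq, and Rgs3, whose longer forms carry other domains beside the RGS fold. Rgs16 averaged 269 CPM in pericytes and 127 in endothelium, where the pericyte level was the higher in 3 of 3 libraries with both, then 4.93 in fibroblasts, 2.52 in leukocytes and 0.883 in VSMCs (0.263 without replicate 3 labelled Smad3SmKO at 18 weeks). Endothelium exceeded fibroblasts 25.7 times, in 15 of 15 libraries and with no overlap. A thinned cell held an Rgs16 UMI in 19.6% of pericytes and 13.3% of endothelial cells but in 0.0464% of VSMCs, although VSMCs shared Rgs5 and Rgs4 with pericytes. Rgs3 was found in every class, with 85.4 CPM in endothelium, 44.4 in VSMCs, 28.7 in pericytes, 24.997 in fibroblasts and 15.9 in leukocytes, endothelium exceeding VSMCs in 14 of 14 libraries, although their ranges over all libraries overlapped. Endothelial cells held some mural RNA, with a summed level of the 8 VSMC markers of 21.5 to 5280 CPM and of the 8 pericyte markers of 16.7 to 367 CPM between libraries, and the part of this in their Rgs5 level, 34.8 to 1434 CPM, was not tested.

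Leukocytes carried the remaining members. Rgs10, a short RGS protein that acts on Gi, averaged 544 CPM in leukocytes against 29.1 in fibroblasts, higher in 15 of 15 libraries by 18.7 times. It was lower still in pericytes (14.6), endothelium (11.9) and VSMCs (9.01), which overlapped. Rgs1, which limits chemokine receptor signals in lymphocytes, averaged 286 CPM in leukocytes and at most 0.632 CPM in any other class. It held 0 UMIs in the pericytes, which allows up to 2.57 CPM. Rgs2 averaged 177 CPM in leukocytes, 45.2 in pericytes, 30.8 in VSMCs, 13.5 in fibroblasts and 13.3 in endothelium, and the order of its last 3 classes did not hold in each library, since VSMCs exceeded fibroblasts in 9 of 15. Thinned to 2000 UMIs, 44.9% of leukocytes held an Rgs10 UMI, 22.9% an Rgs2 UMI and 19.2% an Rgs1 UMI. Among VSMCs these shares were 1.07%, 2.93% and 0.0232%, and the median cell held 5497 UMIs in leukocytes and 7843 in VSMCs.

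**Figure D1:**
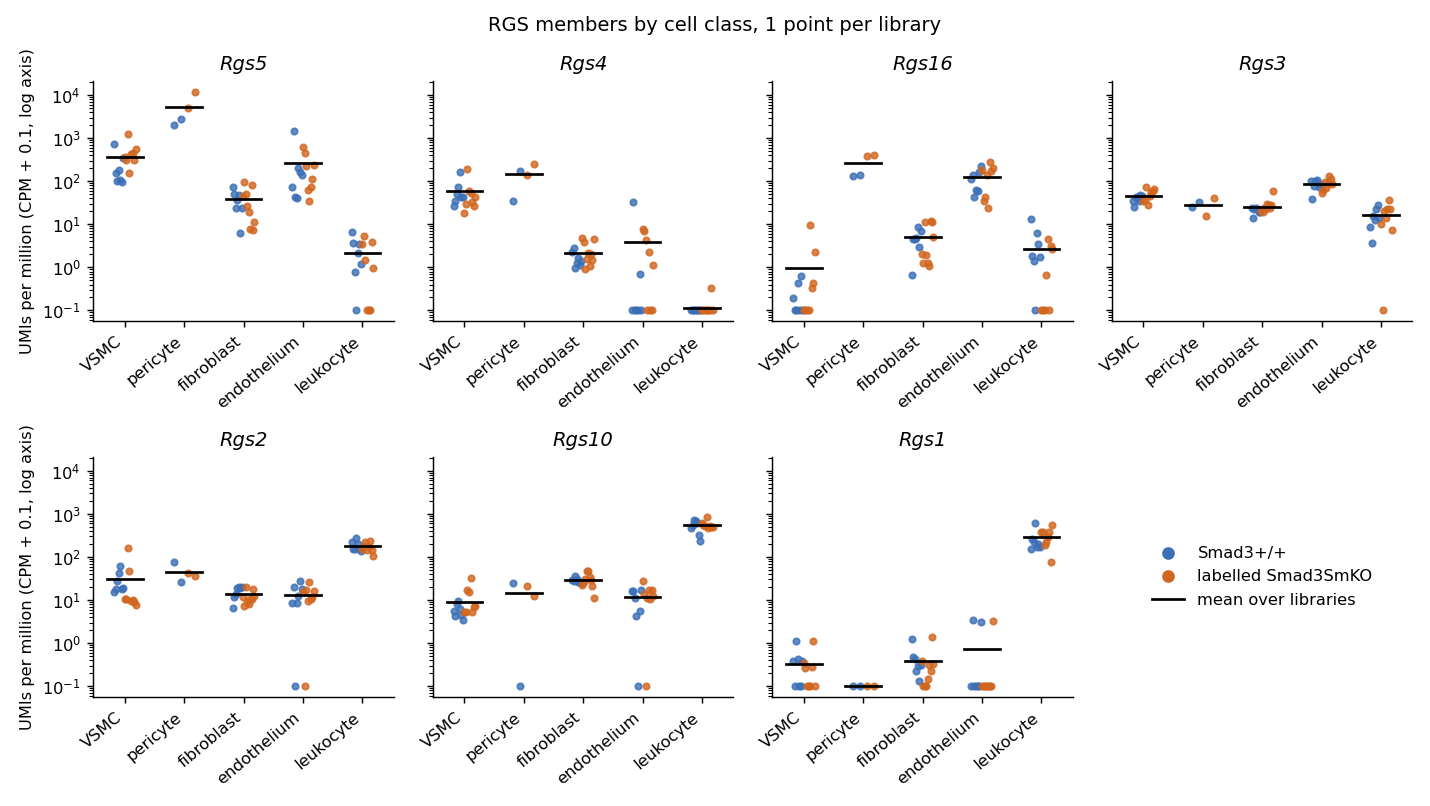
Levels of the 7 genes by cell class, in CPM on a log axis with a small constant added, with 1 point per library, blue for Smad3+/+ and orange for libraries labelled Smad3SmKO, and a black line at the mean over libraries. Rgs5 and Rgs4 are highest in pericytes and VSMCs, Rgs16 in pericytes and endothelium, and Rgs10, Rgs1 and Rgs2 in leukocytes.

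Rgs5 RNA was held by few VSMCs. The 5% of VSMCs with the most Rgs5, 431 cells, held 71.5% of the 32904 Rgs5 UMIs of the class, while 6074 of the 8613 cells held 0, and the highest cell held 604. The 740 VSMCs with 10 or more Rgs5 UMIs, 8.59% of the class, held 84.3%. The same top 5% held 32.8% for Rgs3, 47.8% for Rgs4 and 70.7% for Rgs2, although the last rests on 1333 UMIs in all. The share of such Rgs5-rich cells ran from 2.61% in Smad3+/+ replicate 2 at 10 weeks to 18.5% in replicate 1 of the libraries labelled Smad3SmKO at 18 weeks. Counts were not thinned for this, and the median kept cell held 4528 UMIs in the former library and 9469 in the latter. In fibroblasts the top 5% of cells held 94.5% of the Rgs5 UMIs, and in endothelium 78.2%, where 6.63% and 19.9% of cells held any. A gene found in few cells gives a high share by this measure, as did Rgs10 in VSMCs (97.4% of 498 UMIs). Pericytes were more even, with 40.7% in the top 5% and 10 or more Rgs5 UMIs in 68 of 112 cells.

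The pericytes themselves were not uniform. Of the 112 cells, 29 met neither the VSMC nor the fibroblast rule, and all 29 held Rgs5, with a median of 60 UMIs and 10479 CPM over their summed counts. The 35 that also met the VSMC rule stood at 6753 CPM with Rgs5 in 21 of them, and the 48 that also met the fibroblast rule at 2078 CPM with Rgs5 in 34. The 8 VSMC markers summed to 24603 to 38020 CPM in the pericytes of the 4 libraries, and the 8 fibroblast markers to 3233 to 8241 CPM, and whether this RNA was made by these cells or came from others was not tested. By library, Rgs5 in pericytes stood at 2064 and 2727 CPM in Smad3+/+ replicates 1 and 2, digested for 30 min, and at 4968 and 11871 CPM in replicates 6 and 7 labelled Smad3SmKO, digested for 60 min. The pairs did not overlap, but genotype label and digestion time cannot be told apart here, and no test was made of 2 against 2.

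In VSMCs the question was whether the members differed between genotypes 10 or 18 weeks after deletion. At 10 weeks Rgs5 stood at 716 and 157 CPM in the Smad3+/+ libraries and at 357 and 319 CPM in those labelled Smad3SmKO, which lay between them. The fitted log2 fold change was -0.28 (SE 0.67), and 0 of the 6 members tested passed an adjusted p of 0.05 in edgeR's quasi-likelihood test, nor was any under an unadjusted p of 0.05. In that comparison 0% of the 12753 genes tested were called (282 at an unadjusted p under 0.05), and DESeq2 called 1 gene and no member. Rgs1 was not tested in VSMCs, since its counts were too low, and Rgs16 was tested but held 1 UMI in the Smad3+/+ libraries and 0 in the others. At 10 weeks the tracer label and the genotype label cannot be told apart.

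At 18 weeks Rgs5 stood at 99.6, 178, 105, 94.9 and 346 CPM in the 5 Smad3+/+ libraries. It stood at 1252, 158, 422, 447, 311 and 549 CPM in the 6 libraries labelled Smad3SmKO that had at least 20 VSMCs, and at 74.0 CPM in the 19 VSMCs of replicate 4, which was left out of the fit. The groups overlapped, although 4 of the 6 fitted libraries labelled Smad3SmKO lay above every Smad3+/+ library. The fitted log2 fold change was 1.64 (SE 0.57), a 3.11-fold higher level, and it did not pass, with an adjusted p of 0.889 in edgeR. Rgs10 stood at 7.97, 9.55, 6.16, 4.39 and 3.27 CPM in Smad3+/+ and at 16.8, 15.6, 32.3, 5.09, 6.82 and 7.10 CPM in libraries labelled Smad3SmKO, with a log2 fold change of 1.16 (SE 0.33, adjusted p = 0.640 in edgeR). Its 3 high values were the 3 fitted libraries of that label digested for 30 min. The 3 digested for 60 min lay within the range of all Smad3+/+ libraries. Those 3 lay above the Smad3+/+ libraries digested for 60 min, at 4.39 and 3.27 CPM. Among the fitted libraries the labels thus did not overlap within either digestion time. These values rest on 108 Rgs10 UMIs over the 6 libraries at 30 min and 216 over the 5 at 60 min. Replicate 4 labelled Smad3SmKO, digested for 30 min and not fitted, added none to the 498 Rgs10 UMIs of the 15 fitted libraries. Rgs2 (0.08, SE 0.39), Rgs3 (0.27, SE 0.21) and Rgs4 (-0.17, SE 0.21) had log2 fold changes closer to 0. Rgs16, with 4 UMIs in the VSMCs of Smad3+/+ libraries and 31 in those labelled Smad3SmKO, stood at 0 to 0.527 and 0 to 9.57 CPM, and its log2 fold change of 1.85 was smaller than its SE of 2.01. Thus 0 of 6 members tested were called, 2 of them at an unadjusted p under 0.05, where 0.00784% of 12753 genes, 1 gene, were called, 670 were under an unadjusted p of 0.05, and DESeq2 called 17 genes and no member.

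Replicate 1 labelled Smad3SmKO, with 54 VSMCs, was the highest library for Rgs5, and without 1 library the log2 fold change at 18 weeks ranged from 0.98 to 2.27. Within batches, with 10 CPM added to each side, the log2 ratio of Rgs5 was 1.45 in batch 1, 3.46 in batch 2 and 0.48 in batch 6, and that of Rgs10 was 0.92, 0.73 and 0.28. Batch 5 held libraries of 1 label only, and batch 3 had too few VSMCs on that side. Where genes with low counts were also kept, Rgs5 was called (log2 fold change 1.63, edgeR adjusted p = 1.29e-12) where 0.698% of 18781 genes were called, so its call depended on the filter. The share of Rgs5-rich VSMCs was 5.43%, 5.33%, 4.55%, 4.52% and 13.1% in the Smad3+/+ libraries at 18 weeks and 18.5%, 4.44%, 13.9%, 11.3%, 8.14% and 14.3% in the fitted libraries labelled Smad3SmKO. This share is counted from the same UMIs as the level, so it is no separate evidence. It was taken without thinning and also depends on the UMIs per cell.

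The difference between the genotype effects at 18 and 10 weeks was tested directly. For Rgs5 it was 1.92 (SE 0.88) on the log2 scale and for Rgs10 1.08 (SE 0.47), both with an edgeR adjusted p of 1, and 0 of 6 members were called, 2 of them at an unadjusted p under 0.05. In that comparison 0.00784% of genes, 1 of 12753, were called, 377 were at an unadjusted p under 0.05, and DESeq2 called 2 genes and no member. Without the filter on low counts Rgs5 was called here too (1.91, edgeR adjusted p = 2.05e-06), where 0.415% of 18781 genes, 78 genes, were called.

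**Figure D2:**
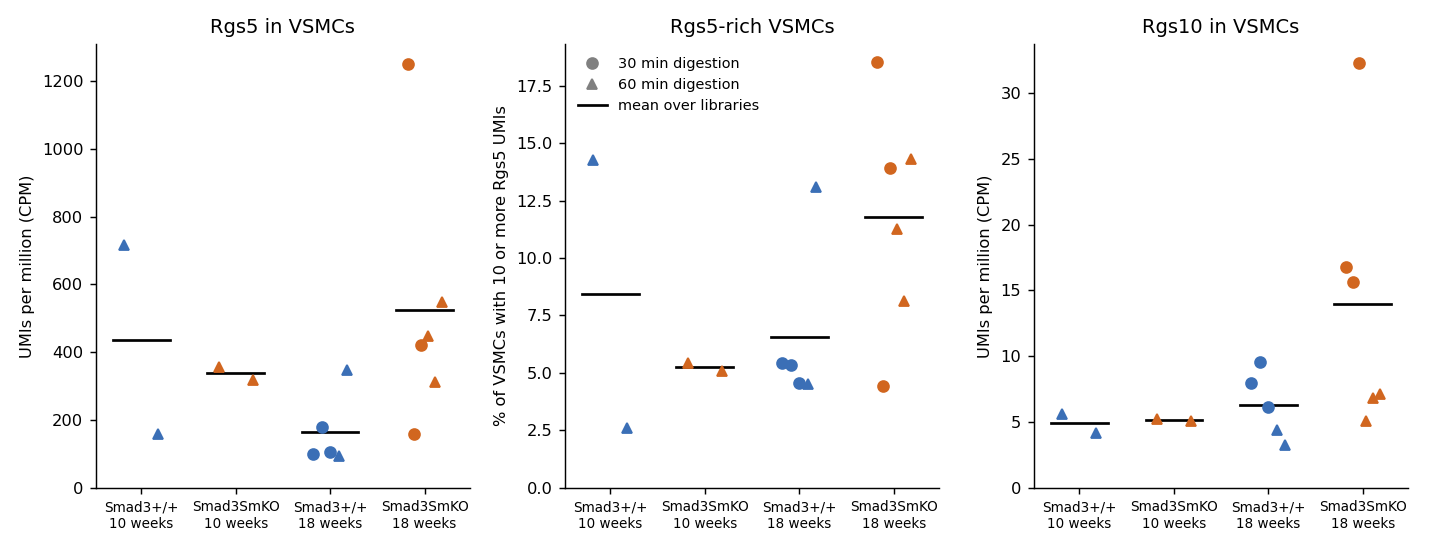
Rgs5 and Rgs10 levels in VSMCs (CPM) and the percent of VSMCs with 10 or more Rgs5 UMIs in the 4 groups, with 1 point per library, circles for 30 min and triangles for 60 min digestion, and a line at the mean. Rgs5 at 18 weeks spans 94.9 to 346 CPM in Smad3+/+ and 158 to 1252 CPM in libraries labelled Smad3SmKO, so the groups overlap.

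No member passed in the other classes. In fibroblasts 0 of 7 members were called at 10 weeks and at 18 weeks, with 0% of 14335 genes called at either time, no member and 127 and 350 genes under an unadjusted p of 0.05, and 1 and 3 genes but no member called by DESeq2. Rgs5 in fibroblasts at 18 weeks stood at 23.4, 37.0, 47.5, 6.15 and 24.5 CPM in Smad3+/+ and at 50.0, 26.4, 18.9, 7.76, 80.5, 7.34 and 11.2 CPM in libraries labelled Smad3SmKO, overlapping widely, with a log2 fold change of -0.71 (SE 0.56). Rgs3 had a log2 fold change of 0.30 (SE 0.23), and its highest library, replicate 7 labelled Smad3SmKO with 60.2 CPM, was made from 188 fibroblasts.

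In endothelium at 18 weeks 0 of 6 members were called where 0% of 9042 genes were (314 genes and no member under an unadjusted p of 0.05, and 1 gene but no member by DESeq2). Rgs16 stood at 43.8, 62.9, 60.0, 168 and 231.97 CPM in Smad3+/+ and at 42.9, 141, 23.9, 281, 172 and 205 CPM in libraries labelled Smad3SmKO. In each label its levels spread over more than 5 times between libraries, and its log2 fold change of 0.77 (SE 0.48) was smaller than that spread. Rgs5 had a log2 fold change of 0.52 (SE 0.50) there, on 16 to 273 UMIs per library, and Rgs3 of 0.16 (SE 0.20). In leukocytes 0 of 5 members were called where 0% of 9685 genes were (190 genes and no member under an unadjusted p of 0.05, and 3 genes but no member by DESeq2). Rgs1 had a log2 fold change of 0.48 (SE 0.32) with levels of 168 to 621 CPM in Smad3+/+ and 76.9 to 567 CPM in libraries labelled Smad3SmKO, and Rgs10 of 0.10 (SE 0.24) with 240 to 710 and 462 to 839 CPM. Replicate 7 of that label held no endothelial cells and 10 leukocytes and entered neither fit.

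**Figure D3:**
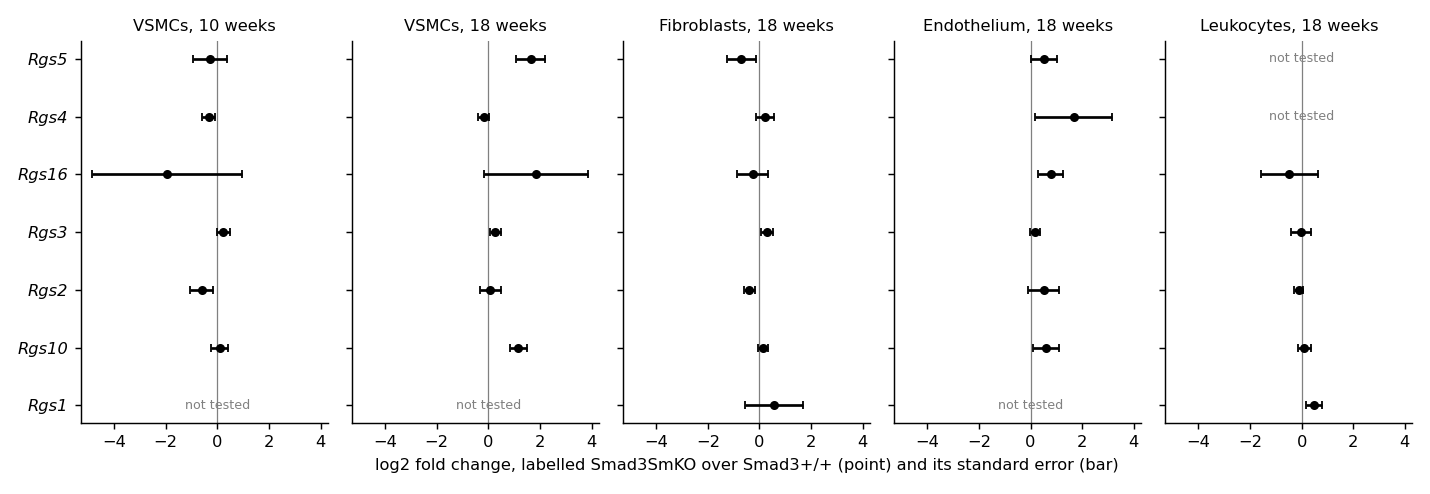
Log2 fold changes of the members between libraries labelled Smad3SmKO and Smad3+/+ libraries (points) with their standard errors (bars), by cell class and time, and a grey line at 0. The points of VSMCs at 18 weeks that stand farthest from 0 relative to their bars are Rgs10 and Rgs5, and none of the points shown passed an adjusted p of 0.05.

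Other genes of G protein signalling did not pass either. The lists held other RGS genes, G protein alpha subunits, beta and gamma subunits, vascular G protein coupled receptors, effectors, and receptor kinases and arrestins, and in VSMCs 0 of 9, 10, 12, 33, 22 and 12 tested genes were called at 10 weeks, at 18 weeks or in the difference, in that order. In fibroblasts 0 of 10, 11, 13, 37, 23 and 12 were called at 10 or 18 weeks. By mean level in VSMCs the leading genes were Rgs7bp (54.1 CPM), a membrane anchor of a related RGS family, and Axin1 (15.6), a Wnt scaffold with an RGS fold, Gnas (1352) and Gnai2 (528) among alpha subunits, Gng5 (611) and Gnb2 (369) among beta and gamma subunits, the thrombin receptor F2r (96.2) and Mrgprf (76.8) among receptors, Rhoa (782) and its kinase Rock1 (744) among effectors, and Ric8a (34.4) and Grk2 (27.7) among kinases and regulators. Of 20 immediate early genes, tested because tissue dissociation is known to raise them, 0 were called in the same comparisons. Almost no gene of any kind was called there. Their median log2 fold change in VSMCs was -0.84 at 10 weeks, -0.13 at 18 weeks and 0.67 in the difference. Over all genes tested it was -0.014, -0.004 and 0.003. In fibroblasts the list had medians of -0.10 at 10 weeks and 0.14 at 18 weeks. The part of this in the members' values was not tested.

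After the longer of the digestions, 3 members were lower in VSMCs. Among the 18 week libraries, Rgs2 in VSMCs had a median of 44.2 CPM (9.57 to 158, n = 6) after 30 min and 9.89 CPM (7.46 to 18.9, n = 5) after 60 min. Rgs10 had 12.6 CPM (6.16 to 32.3) and 5.09 CPM (3.27 to 7.10), and Rgs4 had 66.1 CPM (51.8 to 191) and 42.0 CPM (26.6 to 43.4), with no overlap for Rgs4 and slight overlap for the others. Rgs2 fell by 1.89 on the log2 scale (SE 0.42, edgeR adjusted p = 0.0243) after the longer digestion, Rgs10 by 1.40 (SE 0.26, adjusted p = 0.0104) and Rgs4 by 1.13 (SE 0.29, adjusted p = 0.0454). These were 3 of the 5 members tested, where 2.91% of 10627 genes were called, and DESeq2 called 592 genes and 3 members. Rgs3, with medians of 41.8 and 56.3 CPM, had a log2 fold change of 0.46 (SE 0.18, adjusted p = 0.196), and Rgs5, with medians of 168 and 346 CPM, of 0.26 (SE 0.41, adjusted p = 0.820).

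The 3 calls were not equally firm. Rgs10 kept its call without any 1 library. Rgs2 lost it without Smad3+/+ replicate 3, 4 or 5 or replicate 5 labelled Smad3SmKO, with edgeR adjusted p of 0.0532 to 0.0692 and a log2 fold change still at -1.83 or lower. Rgs4 lost it without Smad3+/+ replicate 2, 3, 4 or 5 or replicate 1, 5 or 6 labelled Smad3SmKO, with adjusted p of 0.0543 to 0.127. Without both libraries that share barcodes 0 members were called by edgeR and 1 gene of 9948 was, with log2 fold changes of -2.63 for Rgs2 (adjusted p = 0.145), -1.63 for Rgs10 (0.145) and -1.24 for Rgs4 (0.361). Digestion time went with batch and with the tracer label, and the effects of these cannot be told apart.

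The make-up of the VSMCs also differed with digestion. VSMCs with more Notch3 and Enpep than Ptprz1 and Tes UMIs made up a median of 35.5% of the class after 30 min (20.3% to 68.2%, n = 6) and 11.5% after 60 min (9.10% to 17.4%, n = 5), with no overlap. Among VSMCs with more Ptprz1 and Tes UMIs alone, over 9 libraries, Rgs4 had a log2 fold change of 0.01 (edgeR adjusted p = 0.998), Rgs2 of -1.42 (0.240) and Rgs10 of -1.35 (0.195), and 0 genes of 9445 were called. Leukocyte markers, the class where Rgs10 and Rgs2 were highest, summed to a median of 59.3 CPM in VSMCs after 30 min (8.37 to 140) and 131.7 CPM after 60 min (23.9 to 198), with overlapping ranges, and their part in these differences was not tested. Of the lists, in names chosen after their values were seen, Rgs17 (log2 fold change -1.57), Gng11 (-1.02) and the receptors Ednra (-2.06), Adrb1 (-1.86) and Ptger3 (-1.84) fell and the receptors Npr3 (1.28) and P2ry6 (0.83) rose, out of 7, 11 and 18 tested, and 0 of 10 alpha subunits, 20 effectors and 11 kinases and arrestins passed. Of the 20 immediate early genes, 4 fell after the longer digestion, Hspa1a (-1.80), Nr4a2 (-1.64), Klf4 (-1.24) and Btg2 (-0.97), and 0 rose.

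In fibroblasts digestion did not move the members past the threshold. There 0 of 6 members were called by edgeR where 1.56% of 14266 genes were, no member was under an unadjusted p of 0.05 (2737 genes were), and DESeq2 called 1150 genes and no member. Rgs2, which fell in VSMCs, had a log2 fold change of 0.42 (SE 0.21, adjusted p = 0.295) in fibroblasts, and Rgs10 of -0.48 (SE 0.23, adjusted p = 0.281). Whether the effect of digestion differed between the classes was not tested. Of the lists, in names chosen after their values were seen, the receptor Adora2b (2.08) and the immediate early genes Atf3 (1.39) and Myc (1.39) rose.

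**Figure D4:**
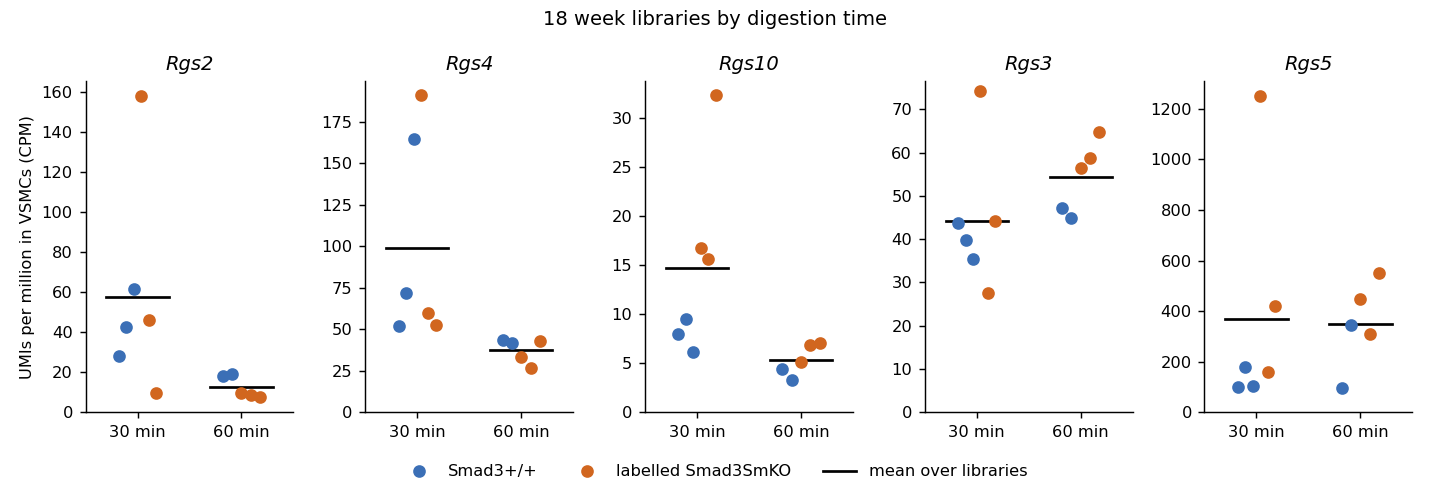
Levels in VSMCs (CPM) of 5 members in the 18 week libraries by digestion time, with 1 point per library, blue for Smad3+/+ and orange for libraries labelled Smad3SmKO, and a line at the mean. Rgs4 does not overlap between 30 and 60 min, Rgs2 and Rgs10 overlap slightly, and Rgs3 and Rgs5 overlap widely.

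The members also divided the VSMCs of a single library. In the study Notch3 and Enpep are transcripts of VSMCs near the aortic root, and Ptprz1 and Tes of VSMCs farther along the ascending aorta, which are not a single cluster there. Within each of 12 libraries with at least 20 cells of both kinds, 804 VSMCs with more Notch3 and Enpep UMIs were compared with 5680 that had more Ptprz1 and Tes UMIs. Rgs4 was higher in the Notch3 and Enpep cells of 12 of 12 libraries, at 73.3 ± 24.3 CPM (SD, n = 12) against 30.6 ± 9.13 CPM, and the ranges of 45.6 to 115 and 15.4 to 43.0 CPM did not overlap. Its log2 fold change was 1.12 (SE 0.14, edgeR adjusted p = 6.76e-07). Rgs2 was higher in the same cells in 8 of 12 libraries, 27.1 ± 16.2 against 19.1 ± 16.1 CPM, with a log2 fold change of 0.67 (SE 0.21, adjusted p = 0.0227). Rgs5 went the other way, lower in 9 of 12 libraries with 225 ± 250 against 307 ± 153 CPM and a log2 fold change of -0.79 (SE 0.23, adjusted p = 0.0141), and so did Rgs3, lower in 10 of 12 with 33.4 ± 10.7 against 43.8 ± 13.4 CPM (-0.37, SE 0.10, adjusted p = 0.00781). Rgs10 was level between them (-0.25, SE 0.29, adjusted p = 0.649).

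Thus 4 of the 5 members tested were called, where 20.4% of 9674 genes were, 2 higher and 2 lower in the Notch3 and Enpep cells, and the neighbours Rgs4 and Rgs5 moved in opposite directions. Rgs4 and Rgs3 kept their calls without any 1 library. Rgs2 lost its call without Smad3+/+ replicate 2 (0.50, adjusted p = 0.104) or 4 at 18 weeks (0.61, 0.0599) or without replicate 1 (0.62, 0.0504) or 2 (0.57, 0.0569) labelled Smad3SmKO at 10 weeks, all by edgeR. Rgs5 lost its call without both libraries that share barcodes (-0.68, edgeR adjusted p = 0.0643) and where cells had to hold UMIs of 1 marker pair only (-0.69, 0.0642). The 8 pericyte markers summed to a median of 415 CPM in the Notch3 and Enpep cells and 297 CPM in the others, higher in 11 of 12 libraries, and the endothelial markers to 58.0 and 31.7 CPM, higher in 12 of 12, and their part in these differences was not tested.

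The receptors and effectors of the same pathway divided the 2 kinds of VSMC further, with names here chosen after their values were seen. Of 15 receptors tested, 5 were higher in the Notch3 and Enpep cells and 3 lower. The higher ones were S1pr3 (log2 fold change 4.95), a sphingosine-1-phosphate receptor, Ptger3 (4.15), a prostaglandin E2 receptor, the endothelin receptor Ednra (2.19), Adrb1 (1.81) and F2rl1 (1.40), and the lower ones were the natriuretic peptide receptor Npr3 (-1.34) and the serotonin receptors Htr2a (-1.19) and Htr1b (-0.94). Of 5 other RGS genes, 3 were higher, Rgs17 (2.64), Rgs6 (1.08) and Rgs7bp (0.43). Of 19 effectors, 4 were higher and 4 lower, and adenylyl cyclases fell on both sides, Adcy9 (1.04) and Adcy6 (0.81) higher and Adcy7 (-1.54) and Adcy1 (-1.29) lower. Among 9 alpha subunits Gnai1 was lower (-0.42), and among 9 beta and gamma subunits Gng11 was higher (1.64) and Gng12 lower (-0.25). Among 8 kinases and regulators Gpsm2 was lower (-1.45). All 20 immediate early genes were higher in the Notch3 and Enpep cells, with a median log2 fold change of 1.24 against -0.02 over all genes tested, and the part of that in the members' values was not tested.

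**Figure D5:**
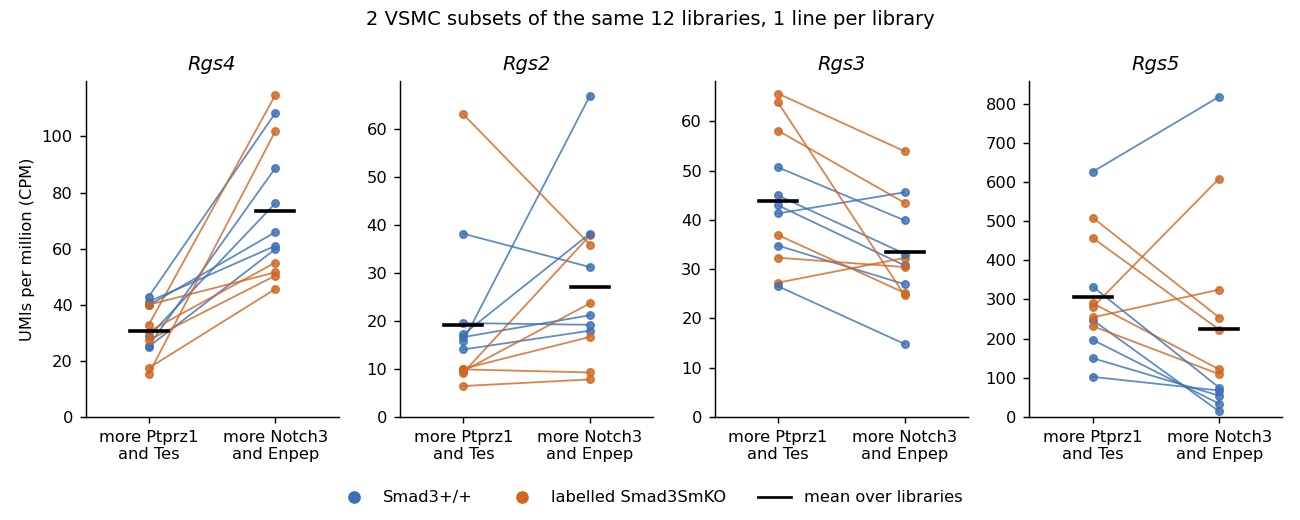
Levels (CPM) of 4 members in the 2 kinds of VSMC of the same 12 libraries, with 1 line per library, blue for Smad3+/+ and orange for libraries labelled Smad3SmKO, and a black bar at each mean. Rgs4 is higher in the Notch3 and Enpep cells than in the Ptprz1 and Tes cells in all 12 libraries, whereas Rgs5 is lower there in 9 and Rgs3 in 10.

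Across the 65 sums of a library and a class, the genes most like each member in log level were found among 8184 candidates by Pearson's r, as a description in which points share libraries and classes. For Rgs5 they were Enpp5 (0.860), Itga1 (0.838), the collagen-binding integrin subunit, and Adcy6 (0.822). For Rgs4 they were Atp1b2 (0.936), Slc2a4 (0.931), the insulin-responsive glucose transporter, and Itga7 (0.927), and Rgs4 and Rgs5 had an r of 0.770 with each other. Rgs16 was most like Cyp4b1 (0.914), and Rgs3 most like Mgll (0.883) and Sema3f (0.878). Rgs10 was most like the macrophage and antigen presentation genes H2-Aa (0.962), Csf1r (0.962) and H2-DMa (0.961), Rgs1 most like Cybb (0.987) and Cd86 (0.986), and Rgs2 most like Pou2f2 (0.893), and the r between Rgs1 and Rgs10 was 0.942.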

How the data were processed

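Each deposited matrix gave raw UMI counts by gene and barcode, produced by the authors with Cell Ranger against mm10 and left unnormalized. The submitters' processing notes name Cell Ranger 6 and Seurat 4, while the file headers name 4.0.0. The 7 members and the gene lists were chosen with earlier results of these data known. The study's cell limits were applied (600 to 6000 genes, 2000 to 50000 UMIs, less than 25% mitochondrial). No doublet caller was run, and cells meeting several class rules were left out instead.

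UMIs were summed per library and class, so that the mouse was the replicate, and levels are UMIs per 1000000 UMIs of the class (CPM). Libraries with at least 20 cells of a class (10 for pericytes) were used. Sums were tested with edgeR 4.0.16 (R 4.3.3; quasi-likelihood test, TMM, filterByExpr, Benjamini-Hochberg adjustment over all genes tested, threshold 0.05), with batch and genotype within weeks as terms. The digestion fit had genotype as a term, and the VSMC subset fit had library as a block. DESeq2 1.42.0 was an alternative, as were other classes, filters and cell minimums. On simulated VSMC sums of 12319 genes, the test recovered 96.5% of 200 genes changed by 2 on the log2 scale, and on fibroblast sums of 14044 genes 99.5%. The simulation gave all libraries 1 expression profile and a fixed spread, without batch effects, and changed no gene of low level. It checks that the code runs as intended, and the power on the real sums was not tested. Python 3.11.15 with numpy 2.4.6, scipy 1.17.1, pandas 2.3.3 and matplotlib 3.10.9 did the rest. The 7 members are named, and of each list the 2 genes with the highest mean in VSMCs. Other names were chosen after their values were seen. Shares and levels carry counting error as well as the spread between mice, and with 112 pericytes and as few as 19 VSMCs in a library, small differences were not detectable.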

Additional observations from a re-analysis of the deposited data

Results flagged for a closer look

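In 34 groups of 4 to 10 libraries in which a member averaged at least 10 CPM, the gap between the most extreme library and its neighbour was tested by Dixon's criterion, which chance meets in about 1 in 20 groups, and 8 groups met it. In VSMCs 3 of the 8 were the same library, replicate 1 labelled Smad3SmKO at 18 weeks, which held 54 VSMCs and stood at 1252 CPM for Rgs5 (next 549), 157.9 CPM for Rgs2 (next 45.9) and 191.4 CPM for Rgs4 (next 60.1). Its batch partner, Smad3+/+ replicate 3 with 44 VSMCs, was the highest Smad3+/+ library for Rgs4, at 164.7 CPM against 72.1. In fibroblasts, Rgs3 was at 60.16 CPM in replicate 7 labelled Smad3SmKO (next 29.1), and Rgs2 was lowest in Smad3+/+ replicate 1 at 18 weeks, at 14.04 CPM (next 18.9). In leukocytes, Rgs1 was at 620.5 CPM in Smad3+/+ replicate 2 at 18 weeks (next 223), and Rgs10 at 838.8 CPM in replicate 2 labelled Smad3SmKO at 18 weeks (next 528).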

How the results depend on the processing

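No paired analysis was possible because the labels give no replicate numbers, those used here following accession order, so groups were matched by batch alone, as a term in the fits and in the ratios within batches. The count of members called between genotypes was 0 in 176 of 178 alternatives over 7 comparisons, and 1 without the filter on low counts in VSMCs at 18 weeks and 1 in the difference between times, Rgs5 in both. Leaving out 1 library gave 0 in every genotype comparison and 1 to 3 for digestion in VSMCs. The digestion count was 1 with at least 50 cells per library, 1 in Smad3+/+ libraries alone, 0 without the pair that shares barcodes and 0 in VSMCs with more Ptprz1 and Tes UMIs, the last 2 settings, like a 10-cell minimum, chosen after seeing the data. The causes were not tested. Of 646 values of the log2 fold changes named above under alternatives, 22 took the opposite sign, 1 of them, Rgs4 with digestion, in a result past the threshold. In VSMCs at 18 weeks Rgs2 turned to -0.23 without the batch term, -0.42 with 50 cells and -0.91 in 60 min libraries, and Rgs4 to 0.063 by the UMI rules as written, 0.055 without the barcode pair and 0.08 in 30 min libraries. Rgs5 in fibroblasts turned to 0.13 without the batch term. In leukocytes Rgs1 turned to -0.11 and -0.10, and Rgs10 to -0.28 and -0.27, without the barcode pair and in 30 min libraries. With digestion Rgs4 turned to 0.012 in Ptprz1 and Tes VSMCs and Rgs5 to -0.24 without the barcode pair. Without 1 library the ranges that crossed 0 were -0.95 to 1.00 for Rgs5 in VSMCs at 10 weeks, -0.44 to 0.66 for Rgs2 and -0.295 to 0.074 for Rgs4 at 18 weeks, -0.11 to 0.80 for Rgs1 and -0.28 to 0.27 for Rgs10 in leukocytes, and -0.27 to 0.78 for Rgs5 with digestion. Rgs5 in leukocytes was 12.6 CPM by the rules as written against 2.11, and the unthinned shares of cells with an Rgs5 UMI, 29.5% in VSMCs, 6.63% in fibroblasts, 19.9% in endothelium and 1.19% in leukocytes, were above the thinned ones.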

Other observations

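The Rgs5-rich VSMCs, those with 10 or more Rgs5 UMIs, were set beside VSMCs with 0 Rgs5 UMIs in the 12 libraries that held enough of both, over 5637 genes. This is a description, and the genes were chosen after their values were seen. Per library, the Rgs5-rich cells stood higher in Prrx2, a homeobox factor of mesenchyme, at 143 ± 82.6 CPM (SD, n = 12) against 9.01 ± 6.83 CPM and in 12 of 12 libraries, with a mean log2 ratio of 2.85 after 10 CPM was added to each side. Sfrp2, a secreted Wnt modulator, stood at 306 against 59.3 CPM (2.19), the laminin subunit Lamc3 at 102 against 15.7 CPM (2.00), the glypican Gpc3 at 156 against 28.8 CPM (1.99) and the proteoglycan Vcan at 142 against 33.9 CPM (1.71). The forkhead factor Foxf1 stood at 48.1 against 7.62 CPM. The cells with no Rgs5 UMI stood higher in Pgam2 (-1.78), Itih4 (-1.72), Thbs1 (-1.51) and the aminopeptidase Enpep (-1.29).

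Of the VSMC markers, Tagln stood at 19557 CPM in the Rgs5-rich cells and 24070 CPM in the cells with 0, higher in 0 of 12 libraries, Acta2 at 22883 against 27226 CPM and Cnn1 at 1768 against 2015 CPM, each higher in 1 of 12, while Des stood at 586 against 410.4 CPM, higher in 9 of 12. Synpo2 (345 against 383 CPM) was higher in 2 of 12, Myocd (53.2 against 57.6 CPM) in 5 and Lmod1 (976 against 963 CPM) in 6. Levels of Myh11, Vtn, Higd1b and Kcnj8 are not compared, since the class rules used these genes. Of the other listed pericyte markers, Abcc9 stood at 105 against 48.1 CPM and Cox4i2 at 90.8 against 55.1 CPM. Each was higher in 11 of 12 libraries. Pdgfrb (77.1 against 64.8 CPM) and Ndufa4l2 (32.9 against 16.9 CPM) were higher in 9 of 12 and Cspg4 (164 against 151 CPM) in 6. Of the other members, Rgs4 stood at 73.3 against 39.8 CPM, higher in 11 of 12, and Rgs2 at 10.4 against 29.0 CPM. The median Rgs5-rich cell held 8702 UMIs and the median cell with none 7669.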
